A study of Mus musculus with 12 samples.

Results

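The genes described here were 10 genes that are higher in white than in brown fat: the secreted factors *Lep*, *Retn*, *Adipoq*, *Rarres2*, *Apln*, *Agt* and *Rbp4*, the receptor *Npr3*, and the intracellular genes *Nnmt* and *Sncg*. They were taken by symbol from a table of 25124 genes, and all 10 were listed. Expression was measured by RNA-seq in interscapular brown adipose tissue (BAT) of 10-week-old male mice held for 1 week at room temperature (RT, 23 °C) or at thermoneutrality (TN, 30 °C). There were 4 groups of 3 libraries: wild-type (WT) mice at RT, *Txnip*-deficient (*Txnip*-/-) mice at RT, WT mice at TN and *Txnip*-/- mice at TN. The study's methods name no Cre driver or tissue-restricted deletion for the *Txnip*-/- mice, which were kept on a C57B/6J background on standard chow. The comparisons ask whether this white-fat set rose in brown fat when the need for heat was removed, and whether it did so more without *Txnip*.

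White adipocytes store triglyceride in a large droplet and secrete adipokines, hormones through which fat tissue signals to the brain, liver, vessels and immune system. Brown adipocytes burn fuel through the uncoupling protein *Ucp1* when sympathetic nerves are driven by cold. At thermoneutrality this drive falls and brown fat accumulates lipid, a change called whitening, in which white-fat genes can be expressed by brown-fat cells.

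Sequencing gave 29.93 to 47.44 M reads per library. Levels are given as TPM, read counts scaled per transcript length and per library total. At RT, *Txnip* was at 613 ± 70.8 TPM (SD, n = 3) with the gene intact and at 29.0 ± 5.59 TPM in *Txnip*-/- BAT; at TN it was at 1131 ± 92.7 and 11.98 ± 2.12 TPM, so the genotype labels held in every library. *Ucp1*, the defining marker of BAT, was between 3769.9 and 4366 TPM in the RT WT libraries. Skeletal muscle markers were not even across groups: 10 such genes summed to 26.9–66.2 TPM in the RT *Txnip*-/- libraries and to 3.04–3.46 TPM in the RT WT libraries, while TN WT replicate 2 held 22.3 TPM and TN *Txnip*-/- replicate 2 held 21.3 TPM against 3.71–4.97 TPM in the other TN libraries. The labels do not say that replicates came from separate mice, so the p-values measure the spread between these libraries.

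The reference promoters of 8 of the 10 genes were matched in RefSeq (GRCm38.p6), those of *Rarres2* and *Nnmt* not. The 200 bases before the transcription start are shown for *Lep* and *Sncg*, which rose at TN, for *Adipoq*, the most abundant of the set, and for *Rbp4*, which fell. Capitals mark TATAAA, the TATA-box motif, and TTNCNNAA (letters of a C/EBP-type site, N being any base), searched on both strands. C/EBP proteins are transcription factors of adipocyte differentiation.
*Lep*, chr6:29060021-29060220, plus strand: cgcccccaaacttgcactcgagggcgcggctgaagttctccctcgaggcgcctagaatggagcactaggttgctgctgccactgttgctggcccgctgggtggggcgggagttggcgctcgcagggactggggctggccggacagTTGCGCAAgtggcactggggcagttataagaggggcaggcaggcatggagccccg
*Sncg*, chr14:34374670-34374869, minus strand: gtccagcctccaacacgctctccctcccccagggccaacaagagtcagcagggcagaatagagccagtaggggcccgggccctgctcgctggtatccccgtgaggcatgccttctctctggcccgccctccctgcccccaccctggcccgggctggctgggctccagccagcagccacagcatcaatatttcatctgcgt
*Adipoq*, chr16:23146336-23146535, plus strand: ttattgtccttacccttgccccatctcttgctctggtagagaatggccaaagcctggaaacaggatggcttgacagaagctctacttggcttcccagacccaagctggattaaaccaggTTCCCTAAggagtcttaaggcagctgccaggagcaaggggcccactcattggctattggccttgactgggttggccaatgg
*Rbp4*, chr19:38124812-38125011, minus strand: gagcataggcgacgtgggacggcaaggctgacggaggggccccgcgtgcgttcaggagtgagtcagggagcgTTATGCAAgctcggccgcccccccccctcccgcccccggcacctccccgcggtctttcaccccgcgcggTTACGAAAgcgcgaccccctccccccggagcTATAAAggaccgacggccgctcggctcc
The *Lep* window held the palindrome TTGCGCAA at bases -55 to -48 from the start, which overlaps the C/EBP-type pattern and occurs in 0.134% of 32851 promoter windows of this length. TTNCNNAA was in 30.0% of those windows, with 1 match for *Adipoq*, 2 for *Rbp4* and none for *Sncg*. TATAAA was in 9.96% of windows, and of these 4 windows in that of *Rbp4* alone, at -28 to -23. The reference also holds another *Rbp4* start, 510 bases upstream, whose window is not shown. That window held TTNCNNAA at -9 to -2 and CCAAT at -162 to -158, but no TATAAA. Of the other patterns searched, CCAAT was in 29.3% of windows and at 3 positions before *Adipoq*, CANNTG, which overlaps both ends of the *Lep* palindrome, in 58.2%, and AGGTCA in 11.4% and in none of the 4 shown. A match describes the letters only.

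At TN, 4 of the 9 tested genes rose in both genotypes, namely *Lep*, *Npr3*, *Sncg* and *Rarres2*. *Rbp4* fell in both genotypes, and *Nnmt* fell in WT. *Agt* was too low for the main test, which kept genes with a mean of at least 1 TPM over the libraries compared. A gene was called at a fold change under 0.8 or over the reciprocal of 0.8, and an adjusted p under 0.05 by limma with Benjamini-Hochberg adjustment over all genes tested. In WT, 6 of 9 were called, 4 higher and 2 lower, against 37.8% of all 12486 genes tested, 31.4% called higher and 6.39% lower. In *Txnip*-/- BAT, 5 of 9 were called, 4 higher and 1 lower, against 39.2%, 30.9% higher and 8.27% lower. With backgrounds this large the counts alone do not set the list apart; its median log2 difference was 0.20 in WT beside 0.18 over all genes, and 0.39 in *Txnip*-/- beside 0.15. The groups did not overlap for 6 of 9 genes in WT, against 57.5% of all genes, and for 6 of 9 in *Txnip*-/-, against 61.1%. The split of calls depended on scaling: 3919 higher and 798 lower in WT became 1926 and 1841 after centring each library on its median, and 3858 and 1033 in *Txnip*-/- became 2294 and 2435; the calls of the 9 genes were the same under that scaling. In bulk tissue, fewer cells of a type and less RNA per cell cannot be told apart.

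**Figure D1:**
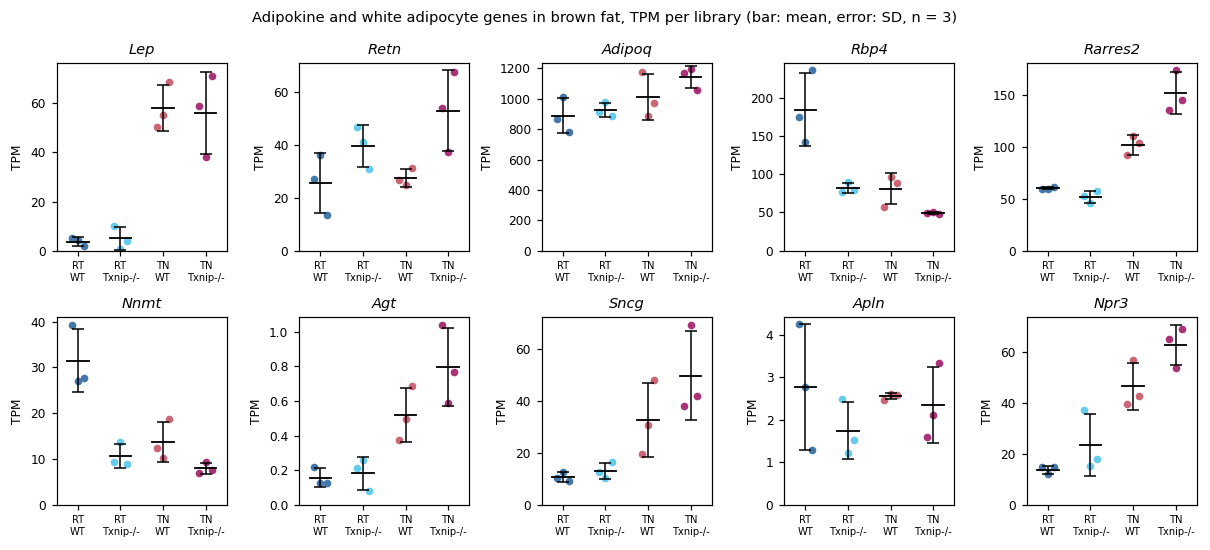
TPM (vertical axis, from 0) of each of the 10 genes in the 12 libraries, by group; points are libraries, the horizontal bar is the mean and the error bar the SD of 3 libraries. *Lep*, *Sncg*, *Npr3* and *Agt* are higher in every TN library than in any RT library, *Rbp4* and *Nnmt* stand highest in RT WT, and *Rarres2* separates all 4 groups.

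*Lep*, at chr6:29060221-29073876 (mm10), encodes leptin, the hormone by which fat mass signals satiety. It was 5.19, 4.14 and 1.82 TPM in RT WT, 10.1, 0.859 and 4.01 TPM in RT *Txnip*-/-, 50.3, 55.1 and 68.5 TPM in TN WT, and 59.1, 38.0 and 71.0 TPM in TN *Txnip*-/- libraries. Every TN library was above every RT library, and the genotypes overlapped at both temperatures, with the highest and lowest RT values both in *Txnip*-/-. The mean was 15.6-fold higher at TN in WT and 11.2-fold higher in *Txnip*-/-. On the log2(TPM + 1) scale, which understates changes of low genes, the difference was 3.71 (SE 0.51, adjusted p = 0.000276) in WT and 3.56 (SE 0.51, adjusted p = 0.0002) in *Txnip*-/-. This was the largest difference of the 9 genes in either genotype. The difference of these 2 responses was -0.15, with a 95% interval of -1.73 to 1.44 and an adjusted p of 0.949, so an unequal response of up to that size was not detectable. The leptin receptor *Lepr* stayed between 0.127 and 0.448 TPM in the 12 libraries, under the level tested.

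The 5 genes whose pattern over the 12 libraries was most like that of *Lep* among 12485 genes, by Euclidean distance of standardised log2(TPM + 1), were *Prrc1*, *Tchp*, *Alox12*, *Shkbp1* and *Ska2*, at distances of 0.46 to 0.63. *Prrc1* went from group means of 9.10 and 9.46 TPM at RT to 15.1 and 14.7 TPM at TN, a far smaller fold than *Lep*.

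*Npr3* (chr15:11839896-11907371) encodes the natriuretic peptide clearance receptor, which removes the cardiac peptides that drive lipolysis. It was 14.7, 12.04 and 14.7 TPM in RT WT, 37.3, 15.2 and 17.9 TPM in RT *Txnip*-/-, 39.7, 56.9 and 42.9 TPM in TN WT, and 65.3, 53.8 and 69.2 TPM in TN *Txnip*-/- libraries. All TN libraries exceeded all RT libraries, and *Txnip*-/- replicate 1 was the high sample at RT. The rise was 3.37-fold in WT (log2 difference 1.67, SE 0.26, adjusted p = 0.000507) and 2.67-fold in *Txnip*-/- (1.48, SE 0.26, adjusted p = 0.000693). *Npr1*, the signalling receptor for the same peptides, rose less, by 0.48 (adjusted p = 0.0106) and 0.68 (adjusted p = 0.00136) on the log2 scale. An exon of *Npr3* overlaps *Gm5144* on the opposite strand, and the counting command set no strand, so reads of the pair cannot be told apart; *Gm5144* was 7.66–19.998 TPM at RT and 25.1–36.8 TPM at TN.

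*Sncg* (chr14:34370274-34374669) encodes gamma-synuclein, a small cytosolic protein abundant in white adipocytes and peripheral neurons. Its levels were 10.3, 12.7 and 9.05 TPM in RT WT, 12.6, 10.3 and 16.5 TPM in RT *Txnip*-/-, 19.5, 30.7 and 47.9 TPM in TN WT, and 37.9, 69.2 and 42.0 TPM in TN *Txnip*-/-. Temperatures did not overlap, genotypes did, and the TN spread was wide. The mean rose 3.07-fold in WT (log2 difference 1.45, SE 0.30, adjusted p = 0.00221) and 3.79-fold in *Txnip*-/- (1.82, SE 0.30, adjusted p = 0.000441).

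*Rarres2* (chr6:48569696-48572802) encodes chemerin, a chemoattractant and adipokine. It was 59.7, 59.5 and 60.9 TPM in RT WT, 52.8, 45.6 and 57.3 TPM in RT *Txnip*-/-, 91.6, 110.1 and 103.3 TPM in TN WT, and 135.2, 174.0 and 145.2 TPM in TN *Txnip*-/- libraries. No groups overlapped: RT *Txnip*-/- was lowest, then RT WT, TN WT and TN *Txnip*-/-. It rose 1.69-fold in WT (log2 difference 0.75, SE 0.10, adjusted p = 0.00028) and 2.92-fold in *Txnip*-/- (1.53, SE 0.10, adjusted p = 6.64e-06). The difference of the responses was 0.78 (95% interval 0.46 to 1.10), with an unadjusted p of 0.000211 and an adjusted p of 0.101 by limma, which did not pass. *Lrrc61* overlaps a *Rarres2* exon on the opposite strand, where reads of the genes cannot be told apart, and was 16.2–19.3 TPM in WT and 12.4–16.3 TPM in *Txnip*-/- at RT, and 25.2–29.2 TPM and 31.4–35.5 TPM at TN, the same order of group means.

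*Agt* (chr8:124556587-124569706), the angiotensin precursor made mainly by liver and also by white fat, was low. It was 0.219, 0.124 and 0.126 TPM in RT WT, 0.211, 0.259 and 0.077 TPM in RT *Txnip*-/-, 0.375, 0.497 and 0.686 TPM in TN WT, and 1.04, 0.586 and 0.767 TPM in TN *Txnip*-/-. All TN libraries were above all RT libraries, with 1 library of 12 reaching 1 TPM. In a limma fit of every gene with a value above 0, the log2 difference was 0.39 (adjusted p = 0.0144) in WT and 0.60 (adjusted p = 0.00125) in *Txnip*-/-.

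**Figure D2:**
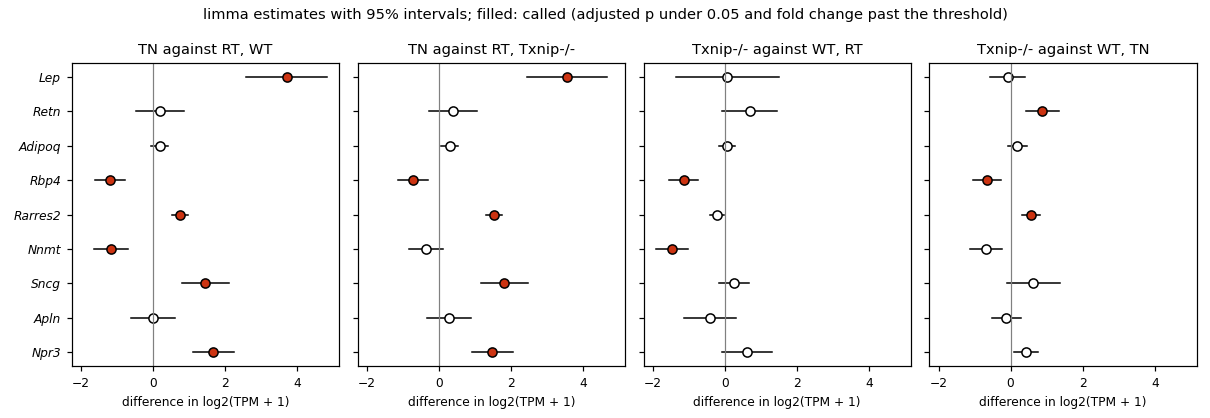
Differences in log2(TPM + 1) (horizontal axis) of the 9 tested genes in 4 comparisons, with 95% intervals from limma; filled points were called. *Lep* has the largest temperature difference, near 3.7 in WT and 3.6 in *Txnip*-/-, and an estimate near 0 between genotypes.

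*Rbp4* (chr19:38116620-38124811) encodes the carrier of retinol in blood. It was 174.4, 142.1 and 236.0 TPM in RT WT, 76.7, 89.5 and 79.0 TPM in RT *Txnip*-/-, 57.6, 96.1 and 89.0 TPM in TN WT, and 49.2, 51.1 and 48.3 TPM in TN *Txnip*-/- libraries. RT WT stood above all other libraries and TN *Txnip*-/- below all others, while RT *Txnip*-/- and TN WT overlapped. At TN the mean was 2.28-fold lower in WT (log2 difference -1.18, SE 0.19, adjusted p = 0.000627) and 1.65-fold lower in *Txnip*-/- (-0.71, SE 0.19, adjusted p = 0.00899).

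*Nnmt* (chr9:48591877-48605123) encodes nicotinamide N-methyltransferase, which uses methyl groups to modify nicotinamide and is abundant in white fat and liver. It was 39.3, 27.1 and 27.8 TPM in RT WT, 9.41, 13.8 and 9.004 TPM in RT *Txnip*-/-, 12.4, 10.3 and 18.6 TPM in TN WT, and 7.02, 9.34 and 7.69 TPM in TN *Txnip*-/- libraries. RT WT was the high group and overlapped no other. The TN mean was 2.28-fold lower in WT (log2 difference -1.15, SE 0.22, adjusted p = 0.00134) and the *Txnip*-/- difference of -0.36 (SE 0.22, adjusted p = 0.176) did not pass and was -0.19 without RT *Txnip*-/- replicate 2. The difference of the responses, 0.79 (95% interval 0.13 to 1.46), had an adjusted p of 0.327.

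*Adipoq*, *Retn* and *Apln* did not pass for temperature in either genotype. *Adipoq* (chr16:23146536-23157968), adiponectin, the insulin-sensitising hormone common to all adipocytes, was the most abundant of the set, ranking 72 of 25124 genes and making up 74.5% of the summed TPM of the 10. It was 865.9, 1012 and 784.0 TPM in RT WT, 910.5, 980.0 and 887.3 TPM in RT *Txnip*-/-, 1177, 884.7 and 972.2 TPM in TN WT, and 1171, 1195 and 1060 TPM in TN *Txnip*-/-. WT libraries overlapped between temperatures and *Txnip*-/- libraries did not; the log2 differences were 0.19 (95% interval -0.06 to 0.43) and 0.30 (adjusted p = 0.0403), the latter under the fold threshold. Without TN *Txnip*-/- replicate 3 it was 0.35 with an adjusted p of 0.0385, and was called; after centring each library on its median it was 0.11 (adjusted p = 0.444).

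*Retn* (chr8:3655770-3659818), resistin, a hormone of mouse adipocytes, was 27.2, 36.4 and 13.6 TPM in RT WT and 26.7, 24.8 and 31.5 TPM in TN WT. *Txnip*-/- libraries held 47.0, 41.2 and 31.1 TPM at RT and 54.2, 37.2 and 67.8 TPM at TN. Temperatures overlapped in each genotype, with log2 differences of 0.20 (95% interval -0.47 to 0.86) and 0.39 (-0.28 to 1.05). *Apln* (chrX:48025146-48034853), the peptide apelin, stayed between 1.21 and 4.26 TPM in all 12 libraries, with log2 differences whose intervals were -0.61 to 0.60 in WT and -0.32 to 0.89 in *Txnip*-/-.

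**Figure D3:**
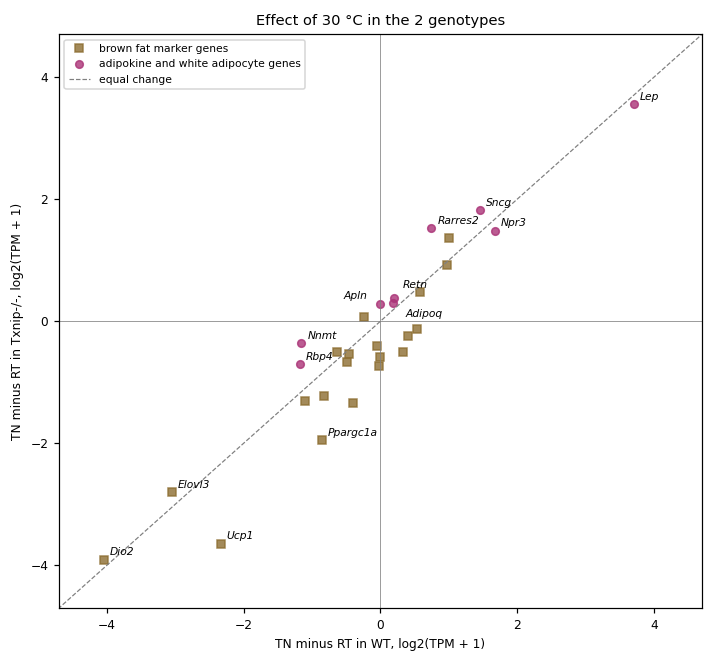
TN minus RT difference in log2(TPM + 1) in WT (horizontal) against *Txnip*-/- (vertical) for the 9 tested genes (circles) and 20 brown fat marker genes (squares); the dashed line is equal change. *Lep*, *Sncg*, *Npr3* and *Rarres2* lie in the upper right, *Rbp4* and *Nnmt* on the lower left, and *Dio2*, *Elovl3* and *Ucp1* have the largest falls.

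Without *Txnip*, *Rbp4* and *Nnmt* were lower at RT, and at TN *Retn* and *Rarres2* were higher and *Rbp4* lower. At RT 2 of 9 genes were called, both lower, against 1.49% of 11980 genes tested, 0.76% higher and 0.726% lower; the groups did not overlap for 4 of 9, against 22.6%. At TN 3 of 9 were called, 2 higher and 1 lower, against 8.66% of 12891 genes, 6.49% higher and 2.17% lower; the groups did not overlap for 4 of 9, against 31.1%. The median log2 difference of the 9 was 0.07 beside 0.03 for all genes at RT, and 0.18 beside 0.01 at TN. No gene of the set was called for a temperature response that differed between genotypes, against 0.00801% of 12486 genes, which was *Txnip* alone; unadjusted p was under 0.05 for 12.6% of genes. The RT and TN genotype comparisons share no library, whereas each shares libraries with the temperature comparisons.

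At RT, *Rbp4* was 2.25-fold lower in *Txnip*-/- (log2 difference -1.13, SE 0.17, adjusted p = 0.03) and *Nnmt* 2.93-fold lower (-1.47, SE 0.19, adjusted p = 0.0221), with no overlap of groups for either. These calls were sensitive to single libraries: without RT WT replicate 1 or 2 or any single RT *Txnip*-/- library, *Rbp4* had an adjusted p of 0.0642 to 0.125, and without RT WT replicate 1 or 2 or RT *Txnip*-/- replicate 1 or 3, *Nnmt* had 0.0573 to 0.105. With every gene above 0 kept, the adjusted p was 0.0730 for *Rbp4* and 0.0542 for *Nnmt*. In the authors' log-scale values the *Nnmt* difference was smaller, at -0.86 (adjusted p = 0.0178). *Lep* differed by 0.07 (95% interval -1.364 to 1.498), *Npr3* by 0.62 (-0.07 to 1.32) and *Retn* by 0.69 (-0.08 to 1.46), none passing; leaving out single libraries moved *Npr3* between 0.25 and 0.87 and *Retn* between 0.31 and 0.98. The RT *Txnip*-/- libraries were also those with the muscle markers given above. *S100b*, a calcium-binding protein gene, was at 19.1–28.0 TPM there and at 69.4–75.7 TPM in RT WT. The part of muscle and of other cells in the falls of *Rbp4* and *Nnmt* was not tested.

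At TN, *Retn* was 1.92-fold higher in *Txnip*-/- (log2 difference 0.88, SE 0.20, adjusted p = 0.0322) with no overlap of groups, and *Rarres2* 1.49-fold higher (0.57, SE 0.11, adjusted p = 0.0198). *Rbp4* was 1.63-fold lower (-0.66, SE 0.17, adjusted p = 0.0499), at the edge of the threshold. *Nnmt* lay below WT in all 3 *Txnip*-/- libraries, at -0.68 (SE 0.19, adjusted p = 0.0685), and ranged from -0.96 to -0.38 over the alternatives. *Lep* differed by -0.08 (95% interval -0.58 to 0.41). *Sncg* differed by 0.63 (95% interval -0.11 to 1.37, adjusted p = 0.272), or by 0.32 without TN WT replicate 1 and 0.37 without TN *Txnip*-/- replicate 2, and *Npr3* by 0.43 (0.10 to 0.77, adjusted p = 0.106), neither passing. The calls moved when single libraries were left out: *Retn* had an adjusted p of 0.0531 to 0.104 without any one TN WT library or without TN *Txnip*-/- replicate 1 or 3, *Rbp4* one of 0.104 to 0.144 without TN WT replicate 2 or 3 or any one TN *Txnip*-/- library, and *Rarres2* 0.0515 without TN WT replicate 1 and 0.0581 without replicate 3. Without TN WT replicate 3 no gene of the set was called, and without TN WT replicate 2 *Npr3* (adjusted p = 0.0367) and *Nnmt* (adjusted p = 0.0417) were. With every gene above 0 kept, *Retn* had an adjusted p of 0.0805 and *Rbp4* of 0.111, and with all 12 libraries in 1 fit *Retn* had 0.0862. In the authors' log-scale values the *Retn* difference was 0.54 (adjusted p = 0.0157). With both TN libraries holding muscle markers dropped, a choice made after seeing the data, *Npr3* was called at 0.69 (adjusted p = 0.0416) while *Rbp4* (0.218) and *Rarres2* (0.0668) missed by adjusted p.

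Of 19 receptors and processing enzymes of these hormones, 11 were tested at TN against RT. In WT 6 rose and 1 fell, beside 31.4% of all genes called higher and 6.39% lower, and in *Txnip*-/- 8 rose and none fell, beside 30.9% and 8.27%. The median log2 difference of the 11 was 0.48 in each genotype, beside 0.18 and 0.15 over all genes, and the split over all genes was near even after centring each library on its median. *Aplnr*, the apelin receptor, went from 5.91, 6.45 and 4.60 TPM in RT WT to 33.9, 43.4 and 24.5 TPM in TN WT, and from 5.01, 7.004 and 10.9 TPM to 39.8, 39.8 and 35.4 TPM in *Txnip*-/- libraries. The temperatures did not overlap and the log2 differences were 2.37 (SE 0.24, adjusted p = 6.18e-05) and 2.24 (SE 0.24, adjusted p = 3.07e-05), while its ligand *Apln* did not pass. *Ccrl2*, a chemerin-binding receptor, rose by 0.84 (adjusted p = 0.00172) and 0.68 (adjusted p = 0.00507), and *Cdh13*, T-cadherin, which binds adiponectin, rose by 0.61 (adjusted p = 0.000255) and 0.64 (adjusted p = 0.000102). The adiponectin receptor *Adipor2* fell by 0.44 (adjusted p = 0.00193) in WT. The angiotensin receptor *Agtr1a* rose by 0.59 (adjusted p = 0.000932) in WT and was not called in *Txnip*-/-, and the difference of its responses did not pass (adjusted p = 0.356). No gene of this list was called between genotypes at either temperature.

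**Figure D4:**
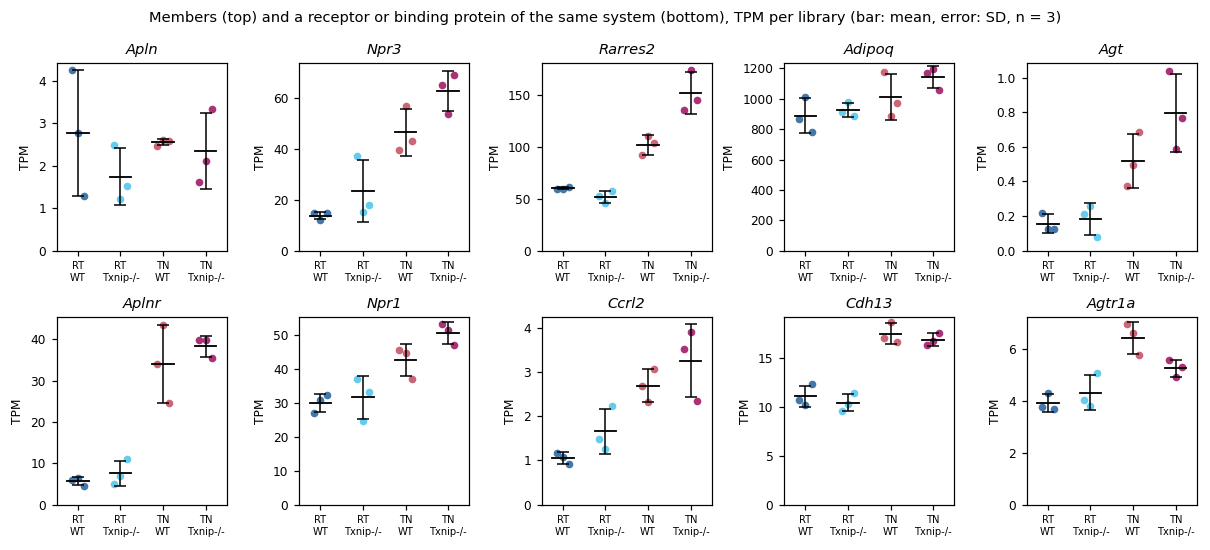
TPM (vertical axes, from 0) of 5 genes of the set (top) and a receptor or binding protein of the same system (bottom) in the 12 libraries; points are libraries, bars means and error bars SD of 3. *Aplnr* rises from at most 10.9 TPM at RT to at least 24.5 TPM at TN while *Apln* stays under 4.3 TPM.

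Of 13 other adipokines, 9 were tested at TN against RT, and 5 were called higher in WT and 6 in *Txnip*-/-, with none called lower, beside the same shares over all genes. *Ccl2* and *Lcn2* reached the tested level only through the TN groups; of the other 7, 4 were called higher in each genotype. *Angptl4*, an inhibitor of lipoprotein lipase, rose by 1.23 (adjusted p = 0.000119) and 1.46 (adjusted p = 2.32e-05). The chemokine *Ccl2* was at 0.363–0.795 TPM in the RT libraries and at 1.21–4.51 TPM in the TN libraries. Genes that mark white fat gave no common direction. Of 7 listed, 3 were tested: *Mest*, associated with adipocyte size, rose by 0.70 (adjusted p = 0.000423) in WT and 1.60 (adjusted p = 6.64e-06) in *Txnip*-/- and was higher without *Txnip* at TN (0.67, adjusted p = 0.00961), the amino acid transporter *Slc7a10* fell by 0.64 (adjusted p = 0.0231) and 0.62 (adjusted p = 0.0256), and *Hoxc8* did not pass.

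Of 20 brown fat markers, 9 fell and 4 rose at TN in WT, where 6.39% of all genes were called lower and 31.4% higher, and 12 fell and 3 rose in *Txnip*-/-, where 8.27% were lower and 30.9% higher. Their median log2 differences were -0.32 and -0.56, beside 0.18 and 0.15 over all genes. The 3 that rose in both were *Epsti1*, an interferon-induced gene, and the transcription factor genes *Lhx8* and *Zic1*; the fourth in WT was *Pank1*. *Ucp1* fell 4.89-fold in WT (-2.34, adjusted p = 0.000148) and 12.2-fold in *Txnip*-/- (-3.64, adjusted p = 8.42e-06). The deiodinase *Dio2*, which activates thyroid hormone, fell by 4.04 and 3.91 on the log2 scale (adjusted p = 4.15e-05 and 1.66e-05). At TN, 10 of 20 were lower in *Txnip*-/- than in WT, beside 2.17% of all genes, and 1, *Epsti1*, was higher, beside 6.49%. The lower genes included *Ucp1* (-1.72, adjusted p = 0.0151) and *Cox8b* (-1.24, adjusted p = 0.00297). The 20 include *Elovl3*, which reached the tested level at TN only through WT, with means of 2.54 TPM in WT and 0.334 TPM in *Txnip*-/-.

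Markers of other cells moved with these groups. The 8 macrophage markers summed at RT to 61.2–70.2 TPM in WT and 102.1–171.2 TPM in *Txnip*-/- libraries, and at TN to 133.9–237.0 and 383.8–537.3 TPM. The 8 fibroblast and progenitor markers summed to 198.6–247.6, 241.2–290.7, 337.8–451.3 and 745.9–756.1 TPM in the same order, and the 7 endothelial markers to 298.7–312.1, 245.0–291.3, 382.6–457.8 and 423.4–465.7 TPM. Macrophage genes were called higher at TN in 7 of 8 in WT and in 8 of 8 in *Txnip*-/-, beside 31.4% and 30.9% of all genes. The 8 lymphocyte markers summed to 3.09–4.45 TPM in WT and 4.38–5.37 TPM in *Txnip*-/- at RT, and to 6.56–10.8 and 12.9–17.9 TPM at TN. The 11 genes of adipocytes in general summed to 24692–25850 and 23336–26254 TPM at RT, and to 20743–22799 and 19666–21239 TPM at TN. *Fabp4* alone made up 16084–16689, 15201–18171, 12336–14045 and 12560–14315 TPM of these sums. By gene, 2 of 11 were called higher and 3 lower at TN in WT, beside 31.4% and 6.39% of all genes. In *Txnip*-/- none were called higher and 4 lower, beside 30.9% and 8.27%. The part of the cells marked by these lists in the rises of *Rarres2*, *Retn*, *Aplnr* and the other genes was not tested. The 5 mesothelial markers summed to 2.16–3.53 TPM, of which *Lrrn4* made up 1.68–2.93 TPM. The 6 liver markers summed to 12.8–18.8 TPM, of which *Apoa2* made up 12.7–18.6 TPM, while the defining marker *Alb* was at most 0.155 TPM.

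**Figure D5:**
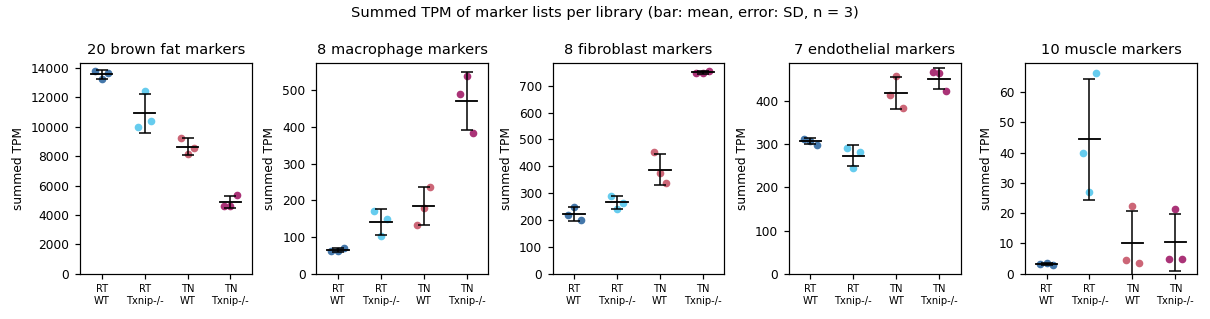
Summed TPM (vertical axes, from 0) of 5 marker lists in the 12 libraries; points are libraries, bars means and error bars SD of 3. Brown fat markers run from 13231–13820 TPM in RT WT down to 4612–5350 TPM in TN *Txnip*-/-, and macrophage and fibroblast markers are highest in TN *Txnip*-/-.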

How the data were processed

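RNA-seq libraries were poly-A selected and sequenced as single-end 75-base reads. Per the submitters' processing notes and the study's methods, the authors aligned reads to mm10 with STAR 2.7.5a and counted exon reads with HOMER 4.11.1, 1 transcript per gene. The deposited TPM values, from the authors, were used as the main measure. The authors also deposited log-scale values (treated as log2) per temperature, normalized by a transform that is not given in the sources used here; these served as an alternative. The authors' own fold changes and p-values were not used.

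log2(TPM + 1) was tested with limma 3.58.1 (R 4.3.3), with a mean-variance trend, on genes with a mean of at least 1 TPM. Genotypes were compared over the 6 libraries of each temperature, temperatures and the difference of responses over all 12, with Benjamini-Hochberg adjustment over all genes tested. Intervals are 95%. The method was tested on simulated data.

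The members and gene lists were chosen with earlier results of these data known. From the receptor, adipokine, white and brown lists, genes were named from at most 3 called per list and comparison by size of difference, plus direct receptors; the 5 genes nearest to *Lep* were named by distance over the 12 libraries. *Lrrc61*, *Gm5144*, *Hoxc8* and *S100b* were named after their values were seen. The result of 1 marker list is not reported here. Alternatives were another pseudocount, no filter, other scalings, another set of libraries, a replicate block and leaving out libraries. Promoter windows came from RefSeq GRCm38.p6.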

Additional observations from a re-analysis of the deposited data

Results flagged for a closer look

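The genotype difference in *Rarres2* had opposite signs at the 2 temperatures: every RT *Txnip*-/- library was below every RT WT library, and every TN *Txnip*-/- library above every TN WT library. At RT the difference was -0.21 with an adjusted p of 0.280 by limma, which did not pass, and -0.12 without RT *Txnip*-/- replicate 2; groups did not overlap for 22.6% of all genes there; at TN it was 0.57 with an adjusted p of 0.0198, and groups did not overlap for 31.1%. The difference of these differences was 0.78 on the log2 scale, with an adjusted p of 0.101 by limma, which did not pass, and of 0.0653 to 0.204 over the alternatives.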

How the results depend on the processing

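The temperature results were the steadiest: over all alternatives 6 to 7 genes of the set were called in WT and 5 to 6 in *Txnip*-/-, and *Lep* stayed between 3.37 and 4.04 in WT and between 2.89 and 4.18 in *Txnip*-/-. Genotype results were less so; the cause was not tested. With all genes above 0 kept, members called were 0 at RT and 1 at TN, and genes called 44 and 621. With all 12 libraries in 1 fit, 272 genes were called at RT. The deviations of same-numbered libraries had r of 0.300, -0.0125 and 0.216 at RT and of 0.039, 0.023 and -0.029 at TN, so the numbers were not taken as pairs; with the replicate block 1 member, *Nnmt*, and 100 genes were called at RT, *Rbp4* missing with an adjusted p of 0.0510; with the block no other count moved by over 1.5 times. Dropping both TN libraries with muscle markers, a choice made after seeing the data, gave 130 genes at TN and 2 for the difference of responses, and turned *Lep* at TN to 0.14 and the response differences of *Lep*, *Npr3* and *Adipoq* to 0.072, 0.066 and -0.0091. A pseudocount of 0.1 took *Rbp4* at TN to an adjusted p of 0.0527, and turned *Lep* at RT to -0.034 and *Apln* in WT to 0.036. Leaving out 1 library gave 0 to 2 members and 2 to 159 genes at RT, 0 to 3 members and 456 to 1005 genes at TN, and 1 to 6 genes for the difference of responses. It also crossed 0 for uncalled values: *Lep* -0.55 to 0.73 and *Adipoq* -0.017 to 0.17 between genotypes at RT, *Lep* -0.27 to 0.17 and *Apln* -0.32 to 0.049 at TN, *Retn* -0.19 to 0.49 and *Apln* -0.33 to 0.28 for temperature in WT, and *Npr3* -0.43 to 0.19, *Retn* -0.10 to 0.57 and *Lep* -0.82 to 0.47 for the difference of responses. With 3 libraries a group, the 95% intervals of the genotype differences reached -1.364 to 1.498 for *Lep* and -1.13 to 0.32 for *Apln* at RT and -0.11 to 1.37 for *Sncg* at TN, so differences of that size could have gone undetected.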
